A study of Rattus norvegicus with 21 samples.

Results

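Rat pancreatic islets kept for 24 h in glucolipotoxic medium (GLT) with compound E were compared with the libraries that the series numbers condition 3. The members were taken from the deposited count table by condition number: 2 libraries of 24 h GLT + compound E (condition 8, preparations 1 and 2) and 3 libraries of condition 3 (preparations 1, 2 and 3), 5 of the 21 libraries in all. Islets came from Sprague Dawley rats, and in each preparation the islets of 8 animals were pooled and then divided over the culture groups, so a preparation pairs the groups and no value belongs to 1 animal. GLT medium held 27 mM glucose and 300 µM palmitate, control medium held 11 mM glucose with no palmitate, and compounds D and E were used at 300 nM. Neither a structure nor a target of either compound, nor the age of the animals, is given in the sources used here.

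Condition 3 carries 2 names. The deposited sample sheet calls it 24 h control, and the sample records call it 3 h GLT. Condition 2 carries the same names the other way round. Under the sheet's name, the groups compared here differ in glucose, palmitate and compound E at the same time point. Under the records' name they differ in culture time and compound E, and both groups had GLT medium. Every difference below is therefore given against "condition 3", and a later paragraph sets condition 2 in its place. Neither reading isolates compound E, since the GLT medium or the culture time changes with it. The comparison that does is with 24 h GLT alone (condition 4, 3 libraries), and 24 h GLT + compound D (condition 6, 3 libraries) sets the compounds against each other.

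Islets are small endocrine organs made mostly of insulin-secreting beta cells, with glucagon-secreting alpha cells, somatostatin-secreting delta cells, and vessels and stroma between them. High glucose together with a saturated fatty acid such as palmitate is a common culture model of the nutrient overload of type 2 diabetes. Such overload is known to load the endoplasmic reticulum (ER), to engage the integrated stress response (translation factor eIF2α phosphorylation followed by ATF4 and CHOP), to raise oxidant defence genes through the transcription factor NRF2, and to switch fatty acid oxidation genes on through PPAR receptors.

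The libraries carried islet RNA: the 2 insulin genes took 42.6% and 35.3% of gene counts with GLT + E, and 34.9%, 45.9% and 12.8% in condition 3. Depth was 30490759 and 34372053 gene counts with GLT + E and 27098064, 40158281 and 22766903 in condition 3. By library size alone, 3 counts, used as the detection floor, lay at or below 0.132 CPM (counts scaled to a common library size) in each. The CPM printed below are also scaled by a TMM factor per library, so the floor shifts with that factor. In the groups compared, a pair of libraries stood apart from the rest of the series. In the preparation 2 library of condition 3, 23.4% of reads had more than 1 alignment (4.92% to 8.51% in the other 20 libraries), and 295 of 8935 genes lay over 4-fold below both other libraries of its condition while 2 lay over 4-fold above them. An example is the chaperone gene Hspa8, at 2004, 50.3 and 1875 CPM in preparations 1, 2 and 3. In the preparation 1 library of GLT + E, the median rank correlation with the other libraries was 0.942, against 0.977 for its partner in preparation 2. Set against 24 h GLT alone of the same preparation, this library differed over 2-fold in 18.0% of the 8935 genes, and its preparation 2 partner in 0.112%. The condition 3 library in preparation 2 had a median rank correlation of 0.933. Outside these groups the preparation 2 library of GLT + D was also low, at 0.947, with 43.3% of its gene counts from the insulin genes against at most 11.7% in its partners. The remaining libraries lay between 0.958 and 0.978. What sets these libraries apart was not tested. The counts below are therefore given with and without the pair, and those for GLT + D also without its preparation 2 library.

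CPM are scaled for library size and by the TMM factor of each library, and values are listed in the order of the preparations. The TMM factors were 0.682 and 0.851 with GLT + E and 0.944, 0.829 and 1.32 in condition 3. A factor below 1 raises the CPM. Differences are fitted log2 values with their standard error (SE), positive where GLT + E was higher. A gene passed at a Benjamini-Hochberg adjusted p below 0.05 in edgeR's quasi-likelihood test, adjusted over all 12576 genes tested. With 2 libraries in a group, the spread between libraries was estimated over all 21.

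Of the 12576 genes, 1066 passed between GLT + E and condition 3 (8.48%), 676 higher (5.38%) and 390 lower (3.1%), and 588 of the 1066 differed at least 2-fold. Both GLT + E libraries lay above all of condition 3 for 22.4% of all genes tested and below them for 22.5%. Of the 1066, 1031 did not overlap, so a lack of overlap adds little to a call and is only described below. Without the preparation 2 library of condition 3, 271 genes passed (2.16%), 193 higher (1.54%) and 78 lower (0.621%), and 254 of these were among the 1066. Without its preparation 3 library the count was 644. Without the preparation 1 library of GLT + E, 42 passed (0.335%), 30 higher (0.239%) and 12 lower (0.0956%). Without both libraries that stood apart, 7 passed (0.0558%), 6 higher (0.0478%) and 1 lower (0.00797%). When the preparation 1 library stood alone for GLT + E, 4109 genes passed, 1997 higher and 2112 lower. The count therefore moved with which GLT + E library was kept, from 42 to 4109. With scaling by library size alone the median log2 difference over all genes was -0.29 in place of 0.02. In that fit 209 genes passed, of which 38.8% were higher, against 63.4% with the scaling used here. With only the groups compared in the fit, 0 of 11731 genes passed, so the calls rest on a spread estimated also from the other conditions.

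**Figure D1:**
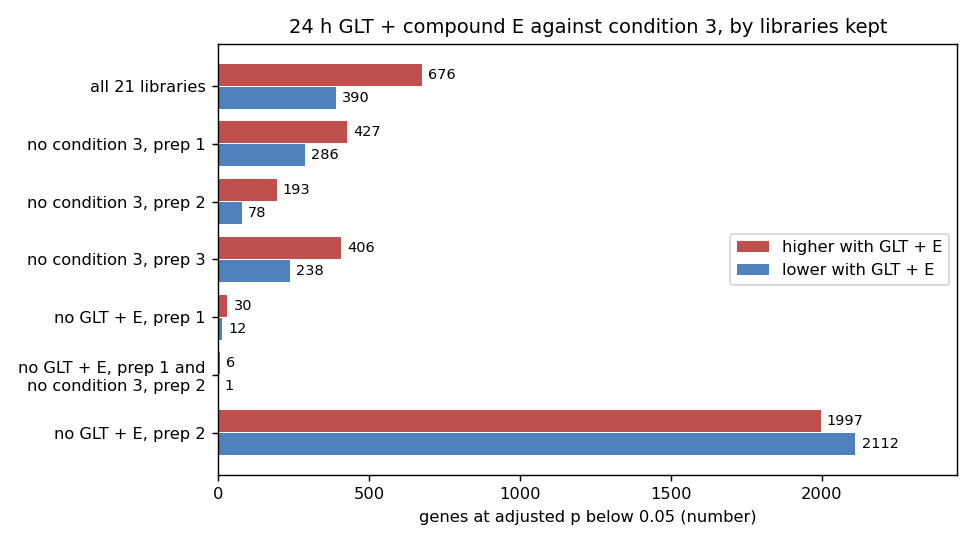
Number of genes at an adjusted p below 0.05 (horizontal axis) that were higher (red) or lower (blue) with 24 h GLT + compound E than in condition 3, by the libraries kept (vertical axis). The counts are 676 and 390 with all 21 libraries, 30 and 12 without the preparation 1 library of GLT + E, and 1997 and 2112 without its preparation 2 library.

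A set of 38 genes passed with all libraries, without the preparation 2 library of condition 3, and without the preparation 1 library of GLT + E; 27 were higher and 11 lower. The 7 that also passed without both were Il23a, Plat, Abcb1a, Zfand2a, Bcat1, Anxa3 and, lower, Akr1c19. Without the preparation 2 library of condition 3, only preparation 1 pairs the groups directly. Without the preparation 1 library of GLT + E, 1 library stands for that group. Without both, no preparation holds both groups, so that fit rests on 1 unpaired library. These genes were picked out by their values and are described, not tested again.

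Il23a encodes the p19 subunit of the cytokine interleukin 23. Its level was 69.9 and 50.0 CPM with GLT + E and 4.54, 4.60 and 7.08 CPM in condition 3. Both GLT + E libraries lay far above all 3 of condition 3, a difference of 3.71 ± 0.28 (adjusted p = 1.67e-05). Without both libraries that stood apart the difference was 3.46 ± 0.38, with a single GLT + E library left. Plat, the tissue plasminogen activator, is the most abundant of the 7. It stood at 808 and 928 CPM with GLT + E and at 126, 49.9 and 241 CPM in condition 3. The groups did not overlap, with a difference of 3.22 ± 0.27 (adjusted p = 2.72e-05), although the preparation 2 library of condition 3 was the lowest of its group. Abcb1a encodes P-glycoprotein, a drug efflux pump of the plasma membrane. It had 30.8 and 30.8 CPM with GLT + E against 2.70, 0.631 and 5.88 CPM, a difference of 4.07 ± 0.47 (adjusted p = 0.000666).

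Bcat1, the cytosolic branched-chain aminotransferase and a target of ATF4, was at 57.9 and 43.4 CPM with GLT + E and 13.3, 7.30 and 19.4 CPM in condition 3 (2.29 ± 0.21, adjusted p = 5.44e-05). Zfand2a (AIRAP), a stress-induced partner of the proteasome, was at 236 and 175 CPM against 74.9, 44.7 and 98.4 CPM (1.81 ± 0.15, adjusted p = 2.66e-05). Anxa3, a calcium-dependent phospholipid-binding annexin, was at 12.5 and 12.5 CPM against 3.09, 1.14 and 2.66 CPM (2.66 ± 0.30). For each of these genes the lower GLT + E library exceeded the highest of condition 3. Akr1c19, an aldo-keto reductase, was the member of the 7 that fell, from 27.6, 28.3 and 30.4 CPM in condition 3 to 10.7 and 7.48 CPM (-1.67 ± 0.21, adjusted p = 0.00125). Its 3 condition 3 libraries lay within a narrow range, well above both GLT + E libraries.

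**Figure D2:**
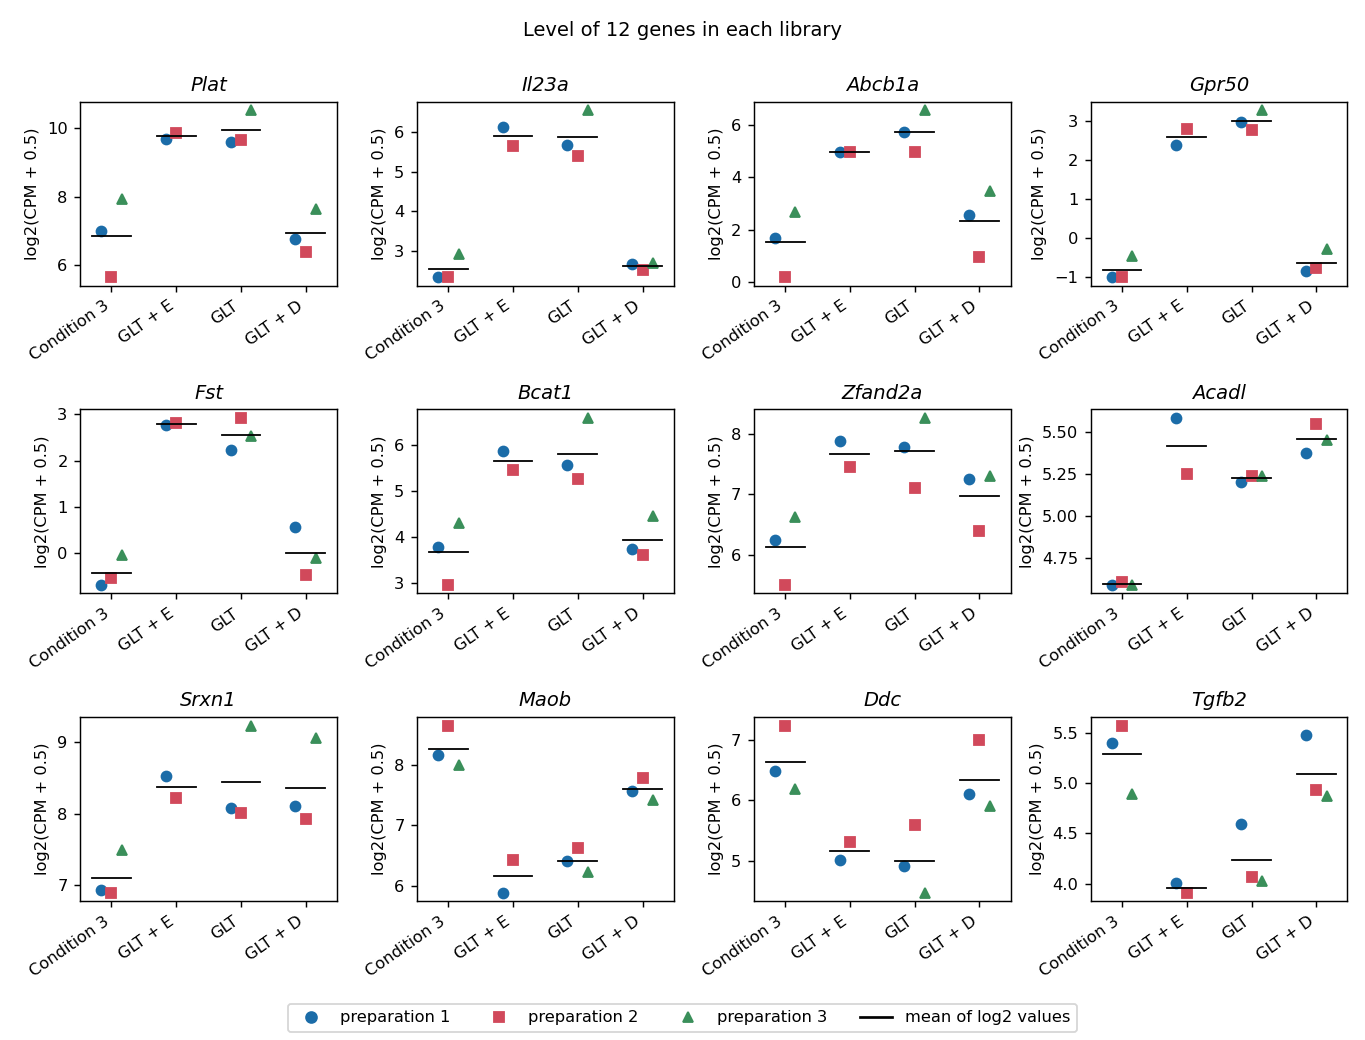
Level of 12 genes in each library, as log2(CPM + 0.5), in condition 3, 24 h GLT + compound E, 24 h GLT and 24 h GLT + compound D; points are libraries, coloured by preparation, and bars are means of the log2 values. Both GLT + E libraries of Il23a (69.9 and 50.0 CPM) and of Plat lie among those of GLT alone, and away from condition 3 and GLT + D, whereas Acadl and Srxn1 in GLT + D lie with GLT and GLT + E.

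Among the largest rises were genes for secreted peptides and signals. Fst, the activin antagonist follistatin, had 6.34 and 6.56 CPM with GLT + E and 0.117, 0.18 and 0.465 CPM in condition 3 (4.72 ± 0.66, adjusted p = 0.00207). Tac1, the precursor of substance P, had 7.45 and 6.46 CPM against 0.508, 0.421 and 1.60 CPM (3.47 ± 0.47, adjusted p = 0.00162). Both genes also passed without either library. The satiety peptide genes Cck (14.03 and 7.28 CPM against 1.17, 1.56 and 1.20 CPM, 3.11 ± 0.49) and Nmu (8.75 and 4.07 CPM against 1.13, 1.05 and 0.565 CPM, 2.63 ± 0.42) rose as well, with no overlap between groups. Neither passed without the preparation 1 library of GLT + E (adjusted p = 0.0893 and 0.0931). Gpr50, an orphan receptor related to the melatonin receptors, was close to silent in condition 3, with 7 counts in 3 libraries, and had 4.66 and 6.42 CPM with GLT + E. Its fitted value of 6.28 ± 0.85 (adjusted p = 0.00162) rests on those few counts, so its size is loosely held.

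Further rises were those of Cd69, an early activation antigen of leukocytes (3.48 ± 0.82), Guca1b, a guanylate cyclase activator (2.90 ± 0.52), Tdrd5, a germ-cell RNA-binding protein (2.87 ± 0.48), and Mt1a, a metal-binding metallothionein (2.97 ± 0.86). None of the 4 passed without the preparation 1 library of GLT + E, and their adjusted p with all libraries ran from 0.00421 for Tdrd5 to 0.0464 for Mt1a. Cd69 and Mt1a did not pass without the preparation 2 library of condition 3 either (adjusted p = 0.0753 and 0.0987). Mt1a had 265, 15.3 and 87.9 CPM in condition 3, a wide spread, with its lowest value in the library of preparation 2 that stood apart, and 1060.0 and 949.7 CPM with GLT + E.

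The genes of the 38 that have not been named above and were higher included Cd55, which shields cells from complement (2.46 ± 0.40), and Niacr1, a receptor for niacin and ketone bodies (2.60 ± 0.35). Agpat9, a glycerol-3-phosphate acyltransferase (2.36 ± 0.35), and Ppap2a, a lipid phosphate phosphatase (2.30 ± 0.33), act in glycerolipid turnover. Ppap2a is abundant, at 593 and 508 CPM with GLT + E and 141, 87.8 and 200.5 CPM in condition 3. Ehd4, an endocytic recycling ATPase (1.39 ± 0.18), Ifrd1, a stress-responsive regulator of transcription (1.50 ± 0.21), Arhgef28, a guanine nucleotide exchange factor (1.30 ± 0.20), Enpep, the membrane aminopeptidase A (0.94 ± 0.15), and Mthfd1l, a mitochondrial one-carbon enzyme (0.90 ± 0.15), differed by less. Dennd2c, a Rab exchange factor, was 2.20 ± 0.30 higher. Sox11, a transcription factor of developing neurons (4.31 ± 0.78), and Areg, the growth factor amphiregulin (3.55 ± 0.56), were near the floor in condition 3, with 15 and 10 counts over its 3 libraries. Aknad1 had no count in condition 3 and 1.15 and 0.786 CPM with GLT + E, and no fold change is given for it.

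Among the largest falls, Maob, the mitochondrial monoamine oxidase B, is the most abundant. It stood at 284, 399 and 253 CPM in condition 3 and 58.8 and 85.8 CPM with GLT + E, with no overlap (-2.14 ± 0.26, adjusted p = 0.000899). Ddc, the aromatic amino acid decarboxylase that makes dopamine and serotonin, had 89.6, 151 and 72.1 CPM and 31.6 and 39.1 CPM (-1.63 ± 0.24, adjusted p = 0.00227). Both fell with and without either library that stood apart. Other members of the 38 that fell were Vsnl1, a neuronal calcium sensor (-1.82 ± 0.27), Sepp1, the selenium carrier selenoprotein P (-1.57 ± 0.27), P2rx3, an ATP-gated channel (-1.36 ± 0.20), Plxdc1, a plexin-domain membrane protein (-1.57 ± 0.25), and Galntl4, a mucin-type glycosyltransferase (-1.42 ± 0.21).

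Further falls included genes known from leukocytes, picked here from the largest falls and not a fixed list, while the leukocyte antigen gene Cd69 rose, as given above. The leukocyte integrin subunit Itgal had 13.2, 9.22 and 12.7 CPM in condition 3 and 1.92 and 2.84 CPM with GLT + E (-2.14 ± 0.30, adjusted p = 0.00227), and passed without either library. Ncf1, a subunit of the phagocyte oxidase, had 15.8, 4.24 and 17.1 CPM and 2.64 and 1.57 CPM (-2.07 ± 0.49, adjusted p = 0.0213). Mmp9, a matrix-degrading gelatinase, ranged over 13.1, 0.992 and 37.8 CPM in condition 3 and had 0.529 and 0.376 CPM with GLT + E (-3.22 ± 0.94, adjusted p = 0.0469). Without the preparation 2 library of condition 3 the adjusted p was 0.0259 for Ncf1 and 0.0516 for Mmp9, and without the preparation 1 library of GLT + E it was 0.205 and 0.468, so only Itgal of these 3 passed in both fits. Of 16 macrophage markers tested, 0 passed in either direction at a median of -0.60, and their summed level was 113 and 69.5 CPM with GLT + E and 78.6 to 111 CPM in condition 3. The 11 lymphocyte markers in the table summed to 4.47 and 5.43 CPM with GLT + E and 7.39 to 9.19 CPM in condition 3, lower with no overlap. Of these, Cd2, Cd3d, Cd3e, Cd3g, Ms4a1 and Nkg7 were at 0 in all 5 libraries. Of the 9 tested 0 passed, but tested members at 0 in all 5 libraries could not pass, so that count says little. The part of these cells in the falls was not tested, and in whole-islet RNA fewer cells of a type and less RNA per cell cannot be told apart.

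The other large falls joined genes of several kinds. Unc5c, a netrin receptor of axons (19.2, 24.6 and 23.3 CPM against 3.03 and 5.23 CPM, -2.29 ± 0.34), and Tnfrsf11b, the decoy receptor osteoprotegerin (93.3, 121 and 89.0 CPM against 18.2 and 25.5 CPM, -2.13 ± 0.35), had the higher counts. Cilp, a cartilage matrix protein, was level across the condition 3 libraries and fell from 14.8, 15.2 and 13.7 CPM to 1.78 and 2.32 CPM (-3.07 ± 0.63). Mycn, a MYC-family transcription factor (-2.16 ± 0.41), Mgat4c (-2.05 ± 0.38) and B3gat1 (-2.03 ± 0.40), both glycosyltransferases, Gng3, a G protein subunit (-2.11 ± 0.58), Wnk3, a kinase of ion transport (-3.17 ± 0.88), and Efcab1, an EF-hand protein (-2.37 ± 0.48), were below 16 CPM in all 5 libraries. Of these 9 genes, 0 passed without the preparation 1 library of GLT + E. Without the preparation 2 library of condition 3, 6 passed, and Wnk3, Gng3 and Efcab1 did not.

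The antioxidant genes that NRF2 is known to drive formed the list with the most members passing. Of 28 tested, 16 rose and 0 fell, with a median of 1.26 over the 28 members against 0.02 over all genes. Over all genes tested 5.38% passed higher and 3.1% lower, the shares to set beside this and the later list counts. The members with the smallest p-values were Osgin1, an oxidative stress-induced growth inhibitor, Sqstm1, the autophagy receptor p62, Prdx6, a peroxiredoxin, and Srxn1, the sulfiredoxin that repairs peroxiredoxins. Sqstm1 stood at 1953 and 1396 CPM with GLT + E and 786, 634 and 956 CPM in condition 3 (1.25 ± 0.19, adjusted p = 0.00242). Srxn1 stood at 368 and 297 CPM and 122, 119 and 179 CPM (1.47 ± 0.25, adjusted p = 0.00535). Neither gene's groups overlapped, and the 3 condition 3 libraries were close to each other compared with the distance to GLT + E.

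Osgin1 was lower in abundance, at 8.12 and 4.99 CPM with GLT + E and 1.45, 2.04 and 3.79 CPM in condition 3 (1.87 ± 0.27). Prdx6 had 71.1 and 43.6 CPM and 24.6, 19.1 and 29.9 CPM (1.34 ± 0.23). The remaining risers of the list included the glutathione transferases Gstp1 (1.87 ± 0.40), Gsta3 (1.90 ± 0.43) and Gsta4 (1.56 ± 0.41), heme oxygenase Hmox1 (1.42 ± 0.36), the quinone reductase Nqo1 (1.39 ± 0.37) and the iron store Fth1 (1.56 ± 0.37). Fth1, at 8063 and 5995 CPM with GLT + E and 2919, 1651 and 2194 CPM in condition 3, was the most abundant of them, and the preparation 1 library of GLT + E was the highest. Hmox1 had 719.8 and 300.1 CPM with GLT + E and 250.1, 114 and 516 CPM in condition 3, so its groups overlapped. Taldo1, an enzyme of the pentose phosphate pathway (1.26 ± 0.24), and Gsr, which uses NADPH to reduce glutathione (0.77 ± 0.20), rose as well.

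The list's count depended on both libraries: 6 of 28 passed without the preparation 2 library of condition 3, and 1 without the preparation 1 library of GLT + E, with medians of 1.07 and 0.88. The gene that remained was Txnrd1, thioredoxin reductase, at 169.7 and 208 CPM with GLT + E and 109, 106 and 173 CPM in condition 3 (0.86 ± 0.15, adjusted p = 0.00647, and 1.04 ± 0.18 without that library, adjusted p = 0.0237). Its preparation 3 value in condition 3 exceeded the lower GLT + E library, so the groups overlapped across preparations. Within preparation 1 the median member was 1.29 higher with GLT + E than in condition 3, and within preparation 2 it was 1.12 higher.

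Promoters of stress genes are shown because members of 2 lists moved together; they come from RefSeq (GRCr8), not from the rn5 build to which the reads were mapped. The antioxidant response element bound by NRF2 was searched as TGACNNNGC, the AP-1 site as TGANTCA, the C/EBP-ATF element bound by CHOP and ATF4 as TGATGNAA and the cyclic AMP response element as TGACGTCA, on both strands of the 250 bases before to 50 bases after each gene's start. An antioxidant response element spelled TGACTCAGC also holds the letters of an AP-1 site. The stretches below lie before the start, on the gene's strand, with the match to the motif named in capitals. Matches to the other motifs are not marked, such as an antioxidant response element at bases -51 to -43 of Ppp1r15a.
Srxn1, AP-1 site, chr3:161064690-161064811, plus strand: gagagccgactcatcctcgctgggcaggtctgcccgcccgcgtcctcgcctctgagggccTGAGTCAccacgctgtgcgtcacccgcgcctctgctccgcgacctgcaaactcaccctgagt
Gstp1, antioxidant response element, chr1:210769706-210769826, minus strand: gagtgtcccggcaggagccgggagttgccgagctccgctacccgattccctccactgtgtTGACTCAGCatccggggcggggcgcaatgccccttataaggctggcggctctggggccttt
Zfand2a, antioxidant response element, chr12:20275200-20275274, plus strand: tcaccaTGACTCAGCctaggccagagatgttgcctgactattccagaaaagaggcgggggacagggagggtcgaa
Ppp1r15a, cyclic AMP response element, chr1:105139597-105139722, minus strand: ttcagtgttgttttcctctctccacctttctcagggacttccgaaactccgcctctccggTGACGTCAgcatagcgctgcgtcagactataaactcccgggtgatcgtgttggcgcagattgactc

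Of the antioxidant list, 22 of 28 members had a promoter in RefSeq's table, and 8 of the 22 (36.4%) held the antioxidant response element, against 12.2% of all 27457 promoters and 14.6% of the 10175 promoters of tested genes. Among the members that rose, 3 of 11 with a promoter held it (27.3%). Of the integrated stress response list, 13 of 39 promoters (33.3%) held the C/EBP-ATF element, against 3.82% of all promoters and 2.19% of those of tested genes, and 1 of 10 among its members that rose. The share was thus not larger among the members that rose than over either whole list. The AP-1 site, printed for Srxn1, was in 4 of 22 promoters of the antioxidant list (18.2%), against 5.21% of those of tested genes. The cyclic AMP response element, printed for Ppp1r15a, was in 1 of 39 promoters of the integrated stress response list (2.56%), against 3.17%. A match is a run of letters and says nothing about binding.

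Genes of the integrated stress response rose in part: 11 of 45 tested were higher and 0 lower, with a median of 0.36. Besides Bcat1, they included the transcription factors Atf4 (0.73 ± 0.17), Atf3 (2.61 ± 0.35), Cebpb (1.80 ± 0.47) and Ddit3 (CHOP, 1.78 ± 0.33), and Ppp1r15a (GADD34, 1.80 ± 0.26), which ends the response by dephosphorylating eIF2α. Atf3 stood at 48.9 and 28.0 CPM with GLT + E and 10.8, 4.09 and 5.49 CPM in condition 3 (adjusted p = 0.00162). Ppp1r15a, whose promoter is printed above, stood at 222 and 142 CPM and 57.8, 49.4 and 75.7 CPM (adjusted p = 0.00227). Ddit3 stood at 137 and 56.3 CPM and 27.6, 32.3 and 21.5 CPM (adjusted p = 0.00769). No library of GLT + E overlapped condition 3 for these genes, but the preparation 1 value of Ddit3 was much the higher of its pair.

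The pseudokinase Trib3 (1.16 ± 0.31), the cystine carrier subunit Slc7a11 (1.49 ± 0.38), the amino acid carrier Slc7a5 (0.54 ± 0.14), the tryptophan-tRNA ligase Wars (0.60 ± 0.16) and the stress hormone Gdf15 (1.12 ± 0.31) completed the 11. Without the preparation 2 library of condition 3, 4 of 45 passed, and without the preparation 1 library of GLT + E, 2 did, Bcat1 and Atf3.

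ER chaperones and degradation genes rose in 6 of 32 cases and fell in 0, with a median of 0.47. Hspa5 (BiP), the main ER chaperone, was at 6467 and 5649 CPM with GLT + E and 3503, 3441 and 3505 CPM in condition 3 (0.82 ± 0.16, adjusted p = 0.00827). P4hb, a protein disulfide isomerase, was at 2852 and 2398 CPM and 1356, 1306 and 1664 CPM (0.92 ± 0.15, adjusted p = 0.00403). Condition 3 was nearly level across preparations for Hspa5, and both GLT + E libraries lay well above it. The cochaperones Dnajb11 (0.98 ± 0.19) and Dnajc3 (0.86 ± 0.19), the degradation factor Herpud1 (1.19 ± 0.27) and the translocon subunit Sec61a1 (0.63 ± 0.17) made up the rest. The counts were 3 without the preparation 2 library of condition 3 and 0 without the preparation 1 library of GLT + E, where the median was 0.30 and Hspa5 stood at 0.66 ± 0.19 (adjusted p = 0.149).

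Immediate early genes, which respond to growth, calcium and stress signals, rose in 11 of 39 cases and fell in 0, with a median of 1.10. Gadd45a, a growth arrest gene, stood at 313 and 213 CPM with GLT + E and 79.5, 82.0 and 60.3 CPM in condition 3 (1.83 ± 0.26, adjusted p = 0.00227). Rgs2, which limits Gq signalling, stood at 53.8 and 38.8 CPM and 19.2, 18.5 and 18.7 CPM (1.45 ± 0.23, adjusted p = 0.0034). Fosl1, an AP-1 subunit, stood at 7.98 and 5.77 CPM and 2.19, 1.32 and 1.86 CPM (2.32 ± 0.34, adjusted p = 0.00227). The groups of each gene did not overlap, and Fosl1 passed without either library that stood apart. Myc (1.82 ± 0.30), the cyclic AMP-induced repressor gene Crem (1.49 ± 0.29), the AP-1 gene Jun (1.49 ± 0.43), Klf4 (1.85 ± 0.40), Ier2 (1.42 ± 0.33) and the phosphatases Dusp1 (1.72 ± 0.38), Dusp5 (1.51 ± 0.28) and Dusp6 (1.14 ± 0.22) were the others. Of the 11, 8 also passed without the preparation 2 library of condition 3 and 1 without the preparation 1 library of GLT + E, at medians of 1.12 and 1.08.

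**Figure D3:**
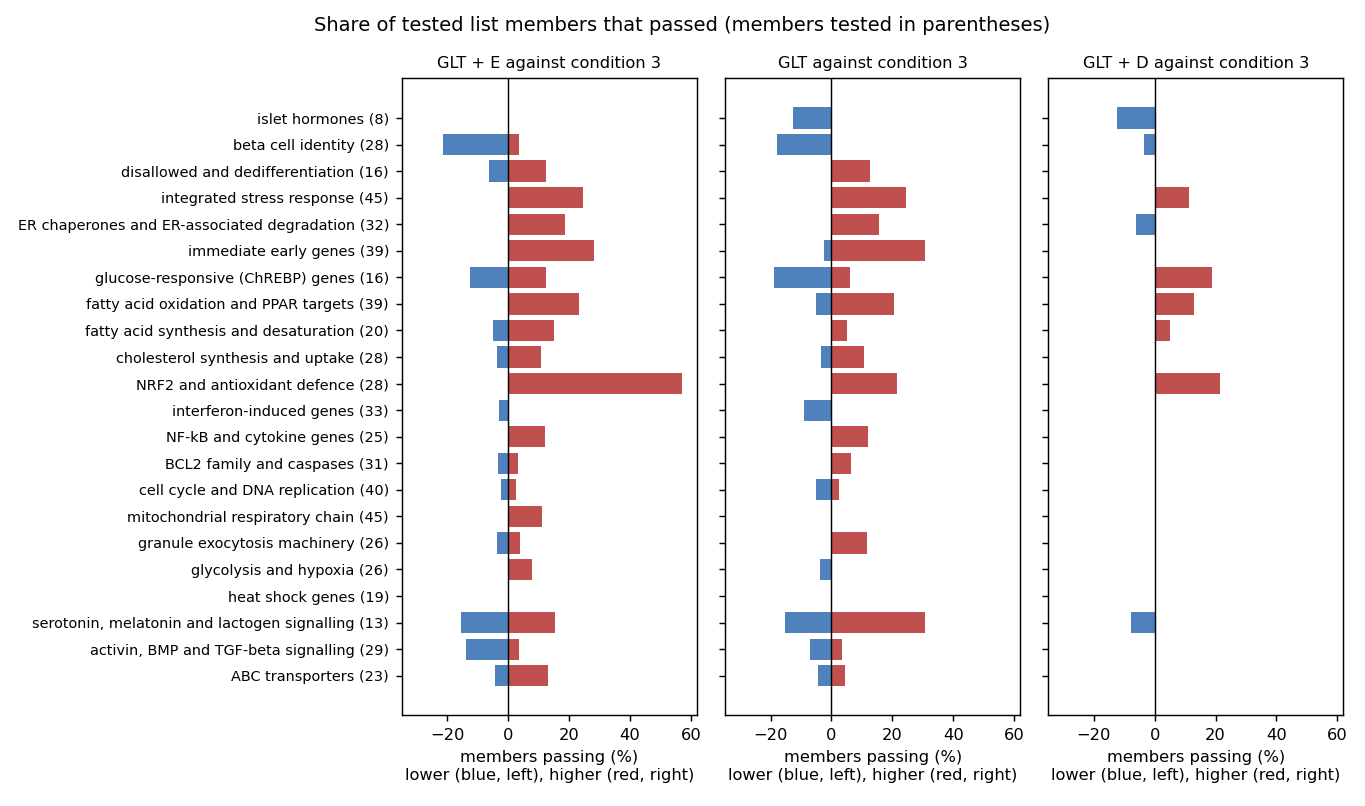
Share of the tested members of each pathway list (percent, horizontal axis; number tested in parentheses) that passed higher (red) or lower (blue) than condition 3 with 24 h GLT + compound E, 24 h GLT and 24 h GLT + compound D, whose comparisons share the 3 libraries of condition 3. With GLT + E, 16 of 28 antioxidant genes passed higher, and 6 did with GLT and 6 with GLT + D. In the direct tests of GLT + E against GLT and against GLT + D, 0 antioxidant genes passed. The counts higher with GLT + E and with GLT were 11 and 11 for the integrated stress response and 11 and 12 for immediate early genes. They were 6 and 5 for ER chaperones and 9 and 8 for fatty acid oxidation.

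Fatty acid oxidation genes and PPAR targets rose in 9 of 39 cases and fell in 0, at a median of 0.33. Acot2, a mitochondrial acyl-CoA thioesterase, was at 54.4 and 39.7 CPM with GLT + E and 11.97, 12.3 and 8.51 CPM in condition 3 (2.02 ± 0.24, adjusted p = 0.000725). It passed without either library that stood apart. Angptl4, a secreted lipase inhibitor, was at 18.4 and 10.7 CPM and 2.23, 1.23 and 3.13 CPM (3.17 ± 0.59, adjusted p = 0.008). Its groups did not overlap, and without the preparation 1 library its adjusted p was 0.116. Smaller rises were those of the acyl-CoA dehydrogenases Acadl (0.84 ± 0.16) and Acadvl (0.66 ± 0.19), the thiolase Acaa2 (0.93 ± 0.23), the carnitine shuttle genes Cpt1a (0.70 ± 0.17) and Slc25a20 (0.79 ± 0.18) and the lipid droplet coat Plin2 (0.72 ± 0.21). Of the 9, 4 also passed without the preparation 2 library of condition 3 and 2 without the preparation 1 library of GLT + E.

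Lipid synthesis genes moved unevenly. Of 20 genes of fatty acid synthesis and esterification, 3 rose, the triglyceride synthases Dgat1 (0.88 ± 0.21) and Dgat2 (1.36 ± 0.31) and the acyltransferase Agpat2 (0.82 ± 0.23), and 1 fell, the citrate lyase Acly (-0.75 ± 0.22). Of 28 genes of cholesterol synthesis and uptake, the synthesis enzymes Fdps (1.27 ± 0.27) and Pmvk (1.27 ± 0.30) and the sterol sensor Insig1 (1.25 ± 0.33) rose, and the sterol exporter Abcg1 (-0.76 ± 0.17) fell. Insig1 was at 294 and 309 CPM with GLT + E and 109, 149 and 118 CPM in condition 3. The medians of the lists were -0.06 and 0.27. Without the preparation 1 library of GLT + E, 0 members of either passed.

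Among 16 glucose-responsive genes, targets of ChREBP, 2 rose and 2 fell, at a median of -0.28. Txnip, the thioredoxin inhibitor that glucose is known to raise strongly in beta cells, had 44.9 and 56.6 CPM with GLT + E and 36.1, 74.3 and 41.1 CPM in condition 3, so the groups overlapped and the difference of -0.28 ± 0.38 did not pass (adjusted p = 0.651). The risers were Gpd1, the glycerol-3-phosphate dehydrogenase (0.90 ± 0.20), and Gpi, a glycolytic isomerase (0.98 ± 0.25). The other two were Pklr, the pyruvate kinase of liver and beta cells (-0.82 ± 0.22), and Tgfbr1, a TGF-beta receptor (-0.91 ± 0.25). Of 26 genes of glycolysis and hypoxia, 2 rose, Gpi and the aldolase Aldoa (1.32 ± 0.31), at a median of 0.71. That count lay near the share over all genes, 5.38% higher. Aldoa was at 2328 and 1258 CPM with GLT + E, and its preparation 1 library was far the higher.

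Beta cell identity genes moved mostly down: 6 of 28 fell and 1 rose, at a median of -0.38. Neurod1, a transcription factor of endocrine cells, was at 249, 359 and 366 CPM in condition 3 and 105 and 147 CPM with GLT + E (-1.27 ± 0.29, adjusted p = 0.0173). Slc30a8, the zinc carrier of insulin granules, was at 567, 681 and 525 CPM and 199.9 and 319.7 CPM (-1.25 ± 0.28, adjusted p = 0.016). Both genes were lower in both GLT + E libraries than in any of condition 3. The transcription factor Rfx6 (-0.72 ± 0.17), the channel Trpm5 (-1.61 ± 0.40) and the fatty acid receptor Ffar1 (-1.46 ± 0.43) also fell, and Chga, the granule protein chromogranin A, rose (1.20 ± 0.27). Without the preparation 2 library of condition 3, 1 member passed, and the same count was left without the preparation 1 library of GLT + E.

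The hormone genes did not separate the groups. Of 8 tested, 0 passed, and insulin and glucagon values overlapped. The differences were 0.69 ± 0.69 for Ins1, 0.41 ± 0.63 for Ins2, 0.13 ± 0.26 for Gcg, 0.22 ± 0.55 for Sst and 0.60 ± 0.67 for Ppy (adjusted p = 0.525, 0.692, 0.757, 0.812 and 0.577). Without the preparation 1 library of GLT + E all 5 were below 0, at -0.20, -0.83, -0.17, -0.85 and -0.62, so no direction is given. Among genes that beta cells normally keep low and markers of dedifferentiation, Cck and the thioesterase Acot7 (1.19 ± 0.34) rose and the progenitor factor Sox4 (-1.01 ± 0.24) fell, of 16 tested. Of 26 genes of granule exocytosis, Slc17a6, the vesicular glutamate transporter (2.18 ± 0.42), rose and Syt11, an atypical synaptotagmin (-1.25 ± 0.34), fell. Those exocytosis counts lay near the shares over all genes, 5.38% higher and 3.1% lower.

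Signalling lists had few members that passed. Of 25 NF-kB and cytokine genes, Il23a, Cd69 and the cytokine Lif (2.11 ± 0.59) rose and 0 fell, at a median of -0.30. Lif overlapped between groups, at 2.69 and 3.93 CPM with GLT + E and 1.53, 0.601 and 8.15 CPM in condition 3. Of 33 interferon-induced genes, 1 passed, the antiviral synthetase Oas1a, at 0.144 and 0.0683 CPM with GLT + E and 9.78, 0.871 and 4.49 CPM in condition 3 (-4.89 ± 1.20, adjusted p = 0.0252). Oas1a had 5 counts over the 2 GLT + E libraries, near the floor, so the size of its fall is loosely held. The median of that list was -1.01, and within preparations it was -1.63 in preparation 1 and -0.15 in preparation 2. Both GLT + E libraries lay below all of condition 3 for 17 of its 33 members, against 22.5% of all genes tested.

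Of 13 genes of serotonin, melatonin and lactogen signalling, Gpr50 and the nuclear receptor Rorb (2.83 ± 0.61) rose and Maob and Ddc fell. Of 29 genes of activin, BMP and TGF-beta signalling, Fst rose. Tgfb2, a TGF-beta ligand, fell from 41.6, 47.1 and 29.2 CPM in condition 3 to 15.6 and 14.6 CPM with GLT + E (-1.47 ± 0.20, adjusted p = 0.00162) and passed without either library. The follistatin-like Fstl1 (-0.89 ± 0.22), the inhibitory Smad7 (-1.12 ± 0.28) and the nodal receptor Acvr1c (-1.75 ± 0.51) fell too. Of 23 ABC transporters, Abcb1a, the porphyrin carrier Abcb6 (0.61 ± 0.17) and Abcg2 (1.99 ± 0.55, 10 counts in condition 3) rose and Abcg1 fell.

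The calls in the respiratory chain list were lost without either library that stood apart. Of its 45 members, 5 rose and 0 fell, at a median of 0.66: the ATP synthase subunit Atp5d (1.33 ± 0.33), the cytochrome oxidase subunit Cox5a (1.64 ± 0.43), and Cyc1 (1.09 ± 0.29), Uqcrfs1 (0.56 ± 0.15) and Uqcrc1 (0.76 ± 0.22) of complex III. Without the preparation 1 library of GLT + E, 0 passed and the median was 0.04, and without the preparation 2 library of condition 3, 0 passed at a median of 0.56. Set against 24 h GLT of the same preparation, the median member was 0.84 higher with GLT + E in preparation 1 and 0.02 higher in preparation 2. Few genes of cell death and division passed: 1 rose and 1, Casp2, fell (-0.61 ± 0.18) of 31 BCL2 family and caspase genes, and Mcm5, a replication helicase subunit, rose (1.70 ± 0.32) and Cdc25b, a mitotic phosphatase, fell (-1.07 ± 0.28) of 40 cell cycle genes. The counts of the caspase and cell cycle lists lay near or below the shares over all genes, 5.38% higher and 3.1% lower. Of 19 heat shock genes 0 passed. Hspa8 differed by 1.12 ± 0.82, and by 0.40 ± 0.23 without the preparation 2 library of condition 3. Hsp90ab1 differed by 0.41 ± 0.17 (adjusted p = 0.132).

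Most calls in the smaller lists also needed both libraries that stood apart. Without the preparation 2 library of condition 3, 1 member passed higher in each of the cholesterol, glucose-responsive, glycolysis, disallowed gene, exocytosis, NF-kB, cell cycle and ABC transporter lists, and 0 in the fatty acid synthesis and caspase lists. The glycolysis member was Gapdh (1.10 ± 0.27), which did not pass with all libraries. Without the preparation 1 library of GLT + E, 1 member passed in the NF-kB and ABC transporter lists, Il23a and Abcb1a, and 0 in the others of these. The activin and TGF-beta list kept Fst and Tgfb2 under both, and the serotonin and melatonin list kept Gpr50, Maob and Ddc. The interferon list had 2 members lower without the former library and 0 without the latter.

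Markers of other islet cells moved with the groups in a few cases. Of 12 alpha cell markers 2 fell, among them the transcription factor Pou3f4 (-1.96 ± 0.57), at a median of -0.60, and their summed level was 24985 to 29841 CPM with GLT + E and 15675 to 32381 CPM in condition 3. Of 16 stellate and fibroblast markers the matrix gene Postn fell (-0.90 ± 0.20), with sums of 1992 to 2886 CPM and 2319 to 2949 CPM. Of 9 Schwann cell markers 2 fell, among them the channel gene Scn7a (-1.27 ± 0.27), with sums of 34.2 to 50.5 CPM and 53.0 to 70.1 CPM, and of 10 duct markers Krt18 rose (0.92 ± 0.27), with sums of 534 to 634 CPM and 408 to 465 CPM. When the preparation 1 library of GLT + E was left out, 1 alpha cell marker still passed. None of the markers of delta, PP, endothelial, acinar, macrophage, red or lymphocyte cells passed against condition 3. The part of a change in cell make-up in the differences above was not tested.

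Compound E was next set against 24 h GLT alone, at the same time and in the same medium. Of 12576 genes, 0 passed (0%), while 812 had an unadjusted p below 0.05, and DESeq2 and limma voom also called 0. The preparation 1 library of GLT + E taken alone gave 2711 genes, 1185 higher and 1526 lower, and the preparation 2 library taken alone gave 0. For genes named above, the 95% intervals of the difference between GLT + E and GLT were -0.35 to 0.80 for Il23a, -0.12 to 0.53 for Zfand2a, -0.32 to 0.57 for Bcat1, -0.29 to 0.38 for Hspa5 and -0.44 to 0.66 for Srxn1. That of Txnip was -1.58 to 0.07. Intervals above 0 included those of Osgin1 (0.48 to 1.63), Areg (0.73 to 2.86), Fosl1 (0.21 to 1.64) and Ins2 (0.21 to 2.89). That of Unc5c, -1.44 to -0.049, lay below 0. The adjusted p of each of these genes was 0.566. Within preparation 1 the median member of the antioxidant list was 0.54 higher with GLT + E than with GLT, and within preparation 2 it was 0.23 higher. The corresponding medians were 0.07 and -0.06 for the integrated stress response, 0.16 and 0.00 for ER chaperones and 0.19 and 0.03 for immediate early genes. The intervals leave room for changes of their size, so the absence of calls does not show that compound E left GLT islets unchanged.

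The values against condition 3 can be read side by side, with the reminder that the 3 comparisons share the libraries of condition 3. With GLT alone 751 genes passed (5.97%), 416 higher (3.31%) and 335 lower (2.66%), and leaving out any 1 library of condition 3 or GLT lowered the count to between 192 and 388. With GLT + D 90 passed (0.716%), 58 higher (0.461%) and 32 lower (0.254%), and 24 to 51 with any 1 library of condition 3 or GLT + D left out, 48 without the preparation 2 library of GLT + D. Il23a was 3.49 ± 0.26 with GLT, 3.71 ± 0.28 with GLT + E and 0.12 ± 0.25 with GLT + D. Plat was 3.00 ± 0.25, 3.22 ± 0.27 and 0.00 ± 0.23 in the same order, and Hspa5 was 0.77 ± 0.14, 0.82 ± 0.16 and -0.33 ± 0.14. For these genes the GLT + E value lay next to that of GLT. Acadl, in contrast, was 0.64 ± 0.15, 0.84 ± 0.16 and 0.88 ± 0.15, and Srxn1 1.36 ± 0.23, 1.47 ± 0.25 and 1.27 ± 0.23, in that order. Neither gene passed between the compounds (adjusted p = 0.928 and 0.732), with 95% intervals of -0.39 to 0.31 and -0.35 to 0.75. Osgin1 was 0.82 ± 0.24 with GLT, which did not pass, 1.87 ± 0.27 with GLT + E and 2.03 ± 0.25 with GLT + D, which did.

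**Figure D4:**
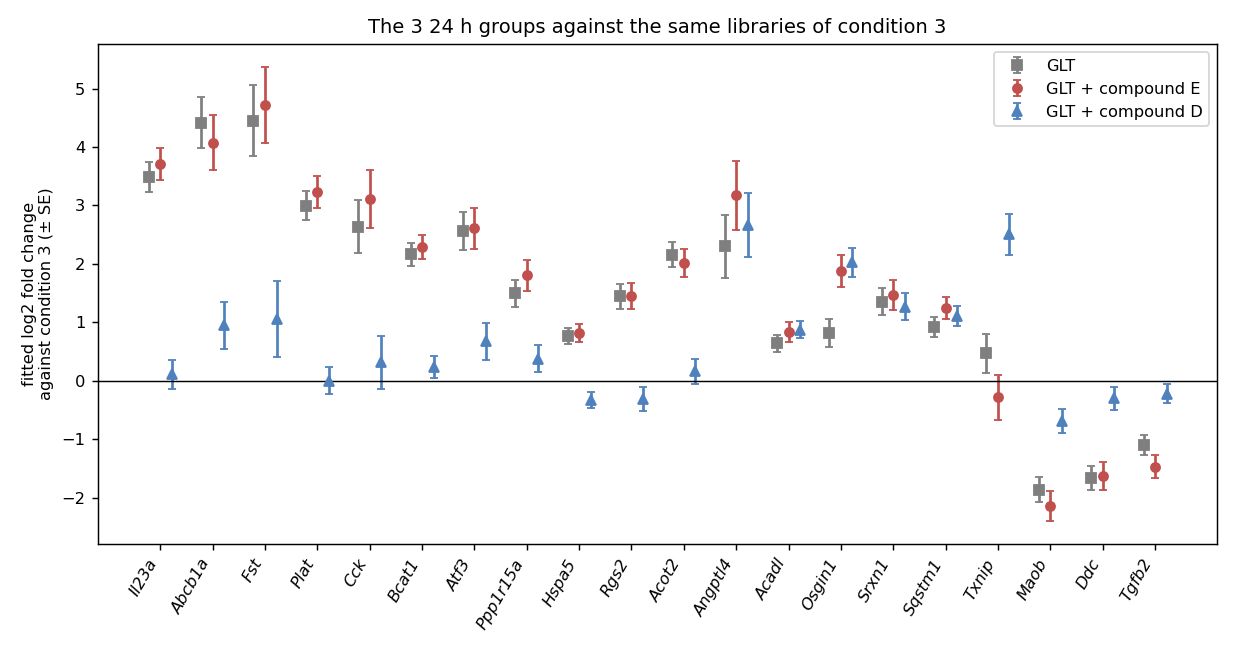
Fitted log2 fold change against condition 3 (vertical axis, ± SE) of 20 genes named in the text, with 24 h GLT (grey squares), 24 h GLT + compound E (red circles) and 24 h GLT + compound D (blue triangles); the 3 groups share the libraries of condition 3. GLT + E lies near GLT for Il23a, Abcb1a and Fst, where GLT + D lies closer to 0, and Txnip is highest with GLT + D at 2.51.

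The 2 compounds were compared directly, both at 300 nM with GLT medium for 24 h. Of 12576 genes, 378 passed (3.01%), 230 higher (1.83%) and 148 lower (1.18%) with compound E than with compound D. Without the preparation 1 library of GLT + E 46 passed, 39 higher and 7 lower, without its preparation 2 library 2798 passed, and without the preparation 1 library of GLT + D 136 passed. Without the preparation 2 library of GLT + D the count was 449, 266 higher and 183 lower. The lymphocyte markers summed to 16.9, 6.82 and 6.73 CPM with GLT + D, highest in preparation 1, against 4.47 and 5.43 CPM with GLT + E, and their part in the difference was not tested. The difference at Il23a, which had 5.83, 5.23 and 6.01 CPM with compound D, was 3.59 ± 0.28 (adjusted p = 2.28e-05). The difference at Plat was 3.22 ± 0.27 (adjusted p = 3.65e-05), with 109, 83.0 and 199 CPM under compound D. Abcb1a (3.12 ± 0.45), Fst (3.66 ± 0.60), Gpr50 (5.24 ± 0.78), Bcat1 (2.04 ± 0.21) and Acot2 (1.86 ± 0.24) were also higher with compound E. So were 10 of 32 ER chaperone genes, with 0 lower, led by Derl3 (2.08 ± 0.30), Sdf2l1 (1.91 ± 0.30) and Creld2 (1.42 ± 0.28), factors of ER folding and degradation, and Hspa5 (1.15 ± 0.16, adjusted p = 0.00202). With the preparation 1 library of GLT + E left out, Il23a (3.34 ± 0.32), Plat, Abcb1a, Fst, Gpr50, Bcat1 and Acot2 still passed, and of the chaperone list 1 member did, Hspa5 (adjusted p = 0.0377).

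Genes lower with compound E than with compound D included Txnip, at 44.9 and 56.6 CPM against 235, 468 and 194 CPM (-2.79 ± 0.42, adjusted p = 0.0031). It was 1 of 5 glucose-responsive genes lower, among them Arrdc4, an arrestin relative of Txnip (-1.48 ± 0.35), Rgs16 (-1.83 ± 0.31) and Tgfbr1 (-0.97 ± 0.25), while Gpd1 and Gpi were higher. Maob (-1.45 ± 0.25), Ddc (-1.33 ± 0.24) and Tgfb2 (-1.25 ± 0.20) were lower with compound E as well. In the integrated stress response list 5 members were higher, Ddit3 (1.61 ± 0.33), Atf3 (1.93 ± 0.35), Ppp1r15a (1.42 ± 0.26), Cebpb (2.07 ± 0.47) and Bcat1, and 4 were lower, the serine and one-carbon genes Psat1 (-0.998 ± 0.23), Phgdh (-0.77 ± 0.19) and Aldh1l2 (-1.002 ± 0.25) and the glycine carrier Slc6a9 (-0.97 ± 0.21). No member of the antioxidant list differed between the compounds at the threshold. The 95% intervals of the difference there were -0.73 to 0.41 for Osgin1, -0.26 to 0.55 for Sqstm1 and 0.06 to 1.04 for Prdx6. Bcat1 apart, no gene of this paragraph, higher or lower with compound E, passed without the preparation 1 library of GLT + E. In that fit Txnip stood at -2.78 ± 0.58, Atf3 at 1.76 ± 0.43 and Bcat1 at 1.93 ± 0.25.

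With condition 2 in place of condition 3, 992 genes passed (7.89%), 532 higher (4.23%) and 460 lower (3.66%) with GLT + E. The count was 268, 470 and 394 without the libraries of condition 2 in turn, and 61 and 3966 without the preparation 1 and 2 libraries of GLT + E. Il23a (3.35 ± 0.28), Abcb1a (3.62 ± 0.45), Anxa3 (3.67 ± 0.32) and Bcat1 (2.16 ± 0.21) were higher there too, with condition 2 levels of 6.02, 6.79 and 7.47 CPM for Il23a. Maob (-1.11 ± 0.25) and Ddc (-1.13 ± 0.24) were lower. Immediate early genes ran the other way: 8 of 39 were lower with GLT + E than in condition 2 and 1 was higher, among the lower ones Nr4a3 (-4.24 ± 0.71), Nr4a2 (-2.98 ± 0.39), Nr4a1 (-2.43 ± 0.51) and Rgs2 (-1.44 ± 0.24). Of 45 integrated stress response genes, 5 were higher and 5 lower with GLT + E than in condition 2, at a median of -0.10, where 11 were higher and 0 lower against condition 3. The higher ones were Bcat1, Wars (0.94 ± 0.16), the serine synthesis enzyme Phgdh (0.77 ± 0.18), the arginine carrier Slc7a3 (1.81 ± 0.43) and the secreted glycoprotein Stc2 (2.56 ± 0.63). The lower ones were the glutathione-degrading enzyme Chac1 (-1.93 ± 0.26), the amino acid carriers Slc7a1 (-1.51 ± 0.22), Slc7a5 (-0.57 ± 0.15) and Slc38a2 (-1.23 ± 0.23), and the mitochondrial folate enzyme Mthfd2 (-0.55 ± 0.16). Chac1 had 391, 461 and 169 CPM in condition 2 and 105 and 95.9 CPM with GLT + E, with no overlap. Slc7a5 had the opposite direction against condition 3, where it was higher with GLT + E. ER chaperone and degradation genes were higher in 2 of 32 cases, P4hb (0.75 ± 0.15) and Edem2 (0.84 ± 0.22), and lower in 0. Without the preparation 1 library of GLT + E, Bcat1 and Chac1 passed of the former list and 0 members of the latter. Tac1 had 15.9, 25.3 and 20.3 CPM in condition 2, above both GLT + E libraries (-1.29 ± 0.43, adjusted p = 0.0786). Of the antioxidant list 12 of 28 were higher with GLT + E than in condition 2 and 0 lower, and without the preparation 1 library of GLT + E 0 passed. In that fit 3 immediate early genes were lower, Nr4a2, Klf4 and Rgs2, and Il23a, Abcb1a and Bcat1 were still higher. Red cell markers were lower with GLT + E than in condition 2 in 4 of 6 cases (median -3.59), and endothelial markers in 4 of 14 (median -1.31). Red cell sums were 12.4 to 18.0 CPM in condition 2, 1.46 to 1.80 in condition 3 and 1.57 to 2.07 with GLT + E. Endothelial sums were 293 to 350, 117 to 157 and 147 to 150 CPM in that order. Which name of the 2 conditions is right was not tested. Of the 92 genes named by rule, 84 passed against condition 3. Of these 84, 28 also passed in the same direction against condition 2, 44 had the same direction without passing and 12 had the opposite sign. Outside the 92, genes of the set of 38 also had the opposite sign against condition 2. They were Vsnl1 (0.71 ± 0.26), Ifrd1 (-0.50 ± 0.22), Dennd2c (-0.48 ± 0.29), Ehd4 (-0.17 ± 0.18), Arhgef28 (-0.083 ± 0.20) and Enpep (-0.077 ± 0.15), and none of them passed there.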

How the data were processed

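Total RNA of islets was sequenced on an Illumina HiSeq as paired reads of 100 bases, per the labels' protocols. The deposited values are whole-number counts of reads per gene, made by the authors with TopHat2 2.0.3, Bowtie2 2.0.0 and HT-seq on the rn5 build, per the labels' protocols and the submitters' processing notes; the annotation and the strand setting are not given in the sources used here, so overlapping genes cannot be separated. Islets of 3 isolations gave the 3 preparations, with 21 libraries in 8 conditions.

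The table holds 17025 genes and 5 entries that name no gene, such as reads with several alignments. These entries took 17.7% to 37.9% of a column and were left out, which leaves 22342406 to 40158281 gene counts per library. By library size alone, before TMM scaling, 3 counts lie at or below 0.134 CPM. Genes were kept with edgeR's filterByExpr (12576 genes), scaled by TMM and tested with edgeR 4.0.16 (R 4.3.3), by the quasi-likelihood test with condition and preparation as terms over all 21 libraries and Benjamini-Hochberg adjustment. The SE is the log2 fold change divided by the square root of the test's F. Alternatives used DESeq2 1.42.0 and limma 3.58.1.

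The preparation was kept as a block because the labels say that the same pooled islets were divided over the groups. The mean correlation of residuals within preparations 1, 2 and 3 was 0.06, 0.17 and 0.39.

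Named genes were the 14 largest rises and 14 largest falls that passed, had the same direction in both shared preparations and reached a mean of 5 CPM in a group. In each of 22 pathway lists, the 4 members with the smallest adjusted p were added, or 2 by level where none passed, with 5 hormone genes, Txnip and Hspa5, 92 genes in all. Other list members and the 38 genes that passed under each set of libraries were chosen after their values were seen. Of 785 list entries, 748 were in the table. Members and lists were chosen with earlier results of these data known. Some genes that the rule names are not reported here.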

Additional observations from a re-analysis of the deposited data

How the results depend on the processing

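Counts of genes that passed are given here in the order GLT + E against condition 3 (1066), against condition 2 (992), against GLT + D (378), GLT against condition 3 (751) and GLT + D against condition 3 (90). The 3 preparations pair the groups, and without the replicate block the counts were 518, 586, 149, 305 and 19. With library size alone they were 209, 237, 236, 292 and 23, and with DESeq2 1874, 1726, 835, 1285 and 382. With only the groups compared in the fit they were 0, 183, 0, 357 and 0. Leaving out the other condition with disputed names gave 580, 865, 232, 419 and 35. Without both libraries that stood apart, an alternative chosen after seeing the data, they were 7, 116, 68, 401 and 95. Over fits that left out 1 library or 1 preparation the ranges were 4 to 4138, 0 to 4422, 0 to 4543, 15 to 455 and 0 to 51. GLT + E against GLT gave 0 genes in every fit but those without the preparation 2 library of GLT + E, so its range was 0 to 3241. The 271 genes that passed without the preparation 2 library of condition 3 became 7 when the preparation 1 library of GLT + E was left out too. Limma voom, no filter on low counts, a filter of 1 CPM in 3 libraries and scaling without Ins1, Ins2 and Rn45s kept each count within 1.5 times. Some of the 92 named genes changed sign. With condition 2 in place of condition 3 they were Abcg2 at -0.72, Cilp 0.075, Dgat2 -0.74, Fosl1 -0.13, Gpd1 -0.075, Insig1 -0.75, Mmp9 0.61, Mt1a -1.96, Nmu -0.31, Rgs2 -1.44, Rorb -1.14 and Tac1 -1.29. Without the replicate block Lif was at -0.044 and Txnip at 0.0067. With library size alone Gcg was at -0.20 and Sst at -0.17, and with only the groups compared Ins2 was at -0.12 and Sst at -0.15. Without both libraries that stood apart Ins1, Ins2, Ppy and Sst were at -0.29, -0.45, -0.73 and -0.92. Over the fits that left out 1 library or 1 preparation, the ranges were -0.20 to 1.27 for Ins1, -0.83 to 1.39 for Ins2, -0.19 to 0.48 for Gcg, -0.85 to 0.89 for Sst and -0.62 to 1.32 for Ppy. The values below 0 came from the fits without the preparation 1 library of GLT + E or without all of preparation 1. The cause of each change was not tested. The 2 GLT + E libraries and the distance between them limit every comparison, and the depth limits only genes near the floor of 3 counts. With only the groups compared in the fit, 83 of the named genes that passed were tested, and 0 of them passed. Of the 84 named genes that passed, 39 also passed in the same direction with library size alone, 56 without the block, 47 without the preparation 2 library of condition 3, 17 without the preparation 1 library of GLT + E and 5 without both.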
